A study of Rattus norvegicus with 6 samples.

Results

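Genes of the vascular endothelium were followed in rat lateral ventricular choroid plexus at embryonic day 15 (E15) and in the adult. The genes were *Cdh5*, *Esam*, *Pecam1*, *Flt1*, *Tek*, *Tie1*, *Emcn* and *Plvap*, which are 8 of the 29479 gene identifiers counted. They were chosen as endothelial genes by name, from a list of 10. The other 2, *Kdr* and *Eng*, have no name in the authors' table of genes called different between the ages, which is the source of names used here, and were not analysed here. The animals were untreated Sprague-Dawley rats, as embryos at E15 and as non-pregnant adults of 6 weeks. Both lateral ventricular plexuses of 10 animals went into a single RNA pool, with 3 pools sequenced for either age. The plexus was taken whole, and so each pool held epithelium, stroma, blood vessels and the blood inside them.

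The choroid plexus is a folded sheet of epithelium that secretes cerebrospinal fluid over a core of stroma and wide capillaries. Unlike the capillaries of most of the brain, those of the plexus are fenestrated, with pores closed by thin diaphragms, and the barrier lies in the tight junctions of the epithelium. Endothelial cells hold together through a cadherin of their own and grow, sprout and mature under 2 receptor tyrosine kinase systems, the receptors of vascular endothelial growth factor (VEGF) and the Tie receptors of the angiopoietins.

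Library totals lay between 17875089 and 19204440 counts. Normalized counts are raw counts scaled with TMM factors, which set the bulk of the genes equal between libraries, to a common library of 19265016 counts. Fold changes are positive on the log2 scale where expression was higher at E15, and enrichment at either age was called where edgeR's quasi-likelihood F test gave a p under 0.05 after Benjamini-Hochberg adjustment over the 16643 genes with a sum above 10 counts. E15 replicate 1 stood furthest from its group over all genes, with a Spearman's rho of 0.979 and 0.9825 with the other two E15 pools against 0.9958 between these. The labels do not say whether pools came from separate litters, so p-values measure the spread between these pools.

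All 8 endothelial genes were enriched at E15, from 3.42-fold for *Emcn* to 29.5-fold for *Cdh5* (adjusted p from 5.05e-07 to 6.90e-05 in edgeR). In no gene did an adult pool reach the lowest E15 pool. The median log2 fold change of the 8 genes was 2.90, against 0.14 for all genes tested. Of all genes tested, 34.7% were enriched at E15, 29.3% in the adult and 64.0% at either age, and the ages did not overlap for 70.1%, with the E15 pools wholly above the adult pools for 38.0%. Because a gene has a name here only if the authors had called it on these same pools, the closer background is the 9958 named genes that were tested, of which 92.8% were called here, 50.6% at E15 and 42.2% in the adult, with a median log2 fold change of 0.73. The number of the 8 genes enriched at E15 remained 8 without E15 replicate 1. In whole tissue, fewer cells of a type and less RNA per cell cannot be told apart.

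Together the 8 genes took 10985, 17027 and 14134 raw counts in E15 replicates 1, 2 and 3, against 730, 1119 and 852 in the same order of adult replicates. As a share of all counts in the library this was 0.0615%, 0.0901% and 0.0763% for the embryonic pools and 0.00394%, 0.00583% and 0.00463% for the adult ones. Every adult pool thus held far fewer of these reads than any E15 pool, on a scale that uses no TMM factor. Such a share depends on what other genes take of the library. *Ttr*, an epithelium gene, alone took 3238055 of 18511712 counts in adult replicate 1 and 476150 of 17875089 in E15 replicate 1. With TMM factors, the summed normalized counts of the 8 genes were 9.08-fold higher at E15.

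The adhesion genes had both the steepest and some of the shallowest differences. *Cdh5* (ENSRNOG00000013324) encodes VE-cadherin, the cadherin of endothelial adherens junctions. Its normalized counts were 1863, 2717 and 2289 in embryonic pools against 48.1, 114 and 68.7 in adult ones. The lowest E15 pool was far above the highest adult pool, and the means were 2290.0 ± 427 and 77.0 ± 33.9 (SD, n = 3 pools each). The log2 fold change was 4.88 with a standard error of 0.28 (edgeR adjusted p = 5.09e-07).

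*Esam* (ENSRNOG00000033217) encodes an immunoglobulin-like adhesion molecule of endothelial tight junctions. It had 776, 1060.0 and 949 normalized counts in embryonic pools against 62.3, 105 and 109 in adult ones, with adult replicate 1 the lowest of all pools. The enrichment at E15 was 10.1-fold (3.33 ± 0.22 on the log2 scale, SE, edgeR adjusted p = 1.23e-06). *Pecam1* (ENSRNOG00000043391) encodes CD31, an adhesion molecule of endothelial cell contacts that platelets and leukocytes also carry. Its normalized counts were 494, 421 and 339 in embryonic pools against 96.3, 147 and 121 in adult ones. E15 replicate 1 was the highest for this gene, although it was the lowest E15 pool for *Cdh5* and *Esam*. The difference was 3.44-fold (1.78 ± 0.22 on the log2 scale, SE, edgeR adjusted p = 6.90e-05).

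Among the receptors, *Tie1* differed most. *Tie1* (ENSRNOG00000020173) encodes a receptor with no well-defined ligand of its own that modulates the angiopoietin receptor. It had 1659, 2825 and 2140.0 normalized counts in embryonic pools against 87.8, 143 and 111 in adult ones. E15 replicate 2 and adult replicate 2 were the highest of their ages. The enrichment was 19.3-fold (4.27 ± 0.25 on the log2 scale, SE, edgeR adjusted p = 5.05e-07). *Tek* (ENSRNOG00000008587) encodes that angiopoietin receptor, Tie2. Its counts were close together at E15, with 1505, 1588 and 1368, and spread in the adult, with 190, 347 and 220. The coefficient of variation was 7.48% at E15 and 33.1% in the adult, and the difference was 5.89-fold (2.56 ± 0.21 on the log2 scale, SE, edgeR adjusted p = 5.06e-06).

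*Flt1* (ENSRNOG00000000940) encodes VEGF receptor 1, which binds VEGF-A tightly and in its soluble form holds it back from the signalling receptor encoded by *Kdr*. It had 782, 1093 and 880 normalized counts in embryonic pools against 125, 173 and 128 in adult ones. Its coefficient of variation was 17.4% at E15 and 19.0% in the adult, and the ages did not overlap. The enrichment was 6.47-fold (2.69 ± 0.19 on the log2 scale, SE, edgeR adjusted p = 1.70e-06).

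The remaining genes encode surface glycoproteins. *Plvap* (ENSRNOG00000017676) encodes the protein of the diaphragms that span fenestrae and caveolae, and in the brain it marks vessels without a barrier, those of the plexus among them. Its normalized counts were 1373, 2849 and 2601 in embryonic pools against 280, 253 and 257 in adult ones. The adult pools were nearly equal, with a coefficient of variation of 5.59%, whereas E15 replicate 1 had a log2 deviation of -0.99 from the mean of the other 2 E15 pools. The difference was 8.63-fold (3.11 ± 0.26 on the log2 scale, SE, edgeR adjusted p = 5.31e-06). Its log2 value was 3.37 without E15 replicate 1 and 2.91 without E15 replicate 2. *Emcn* (ENSRNOG00000022910) encodes endomucin, a mucin-like protein of capillaries and veins. It varied least at E15, with a coefficient of variation of 3.78%, and had 539, 559 and 518 normalized counts in embryonic pools against 144, 171 and 157 in adult ones. It was enriched 3.42-fold (1.77 ± 0.14 on the log2 scale, SE, edgeR adjusted p = 4.35e-06).

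**Figure D1:**
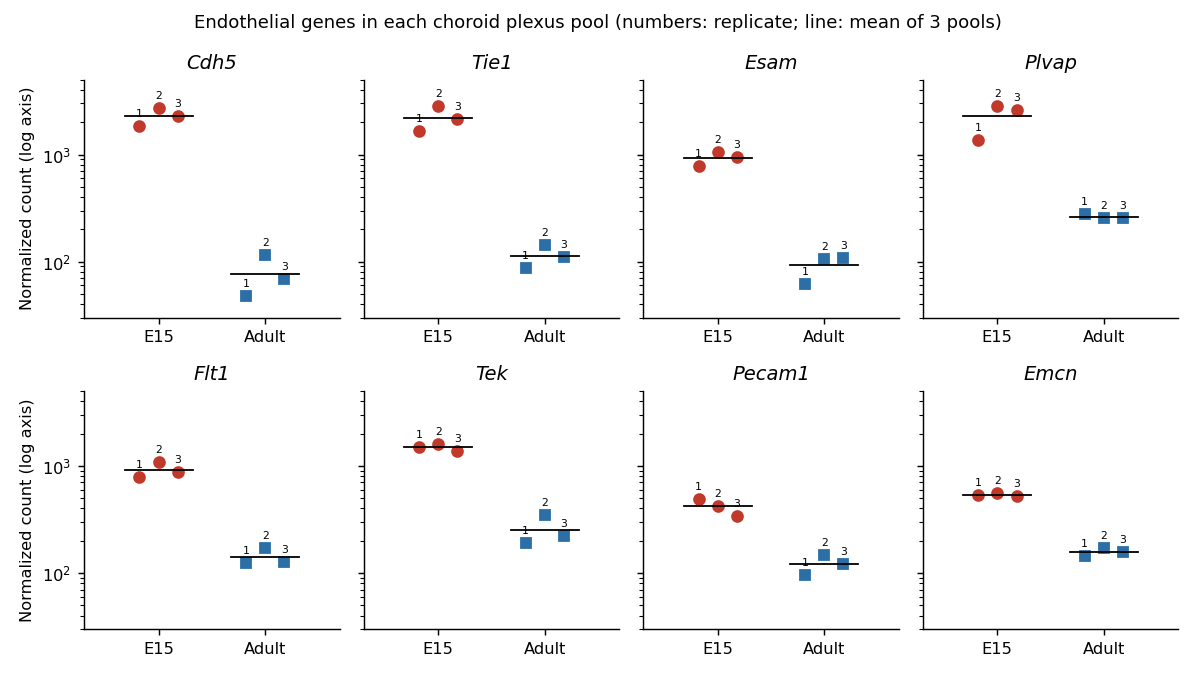
Normalized counts (log axis) of the 8 endothelial genes in each of the 6 pools, E15 as circles and adult as squares, with the replicate number above each point and a line at the mean of 3 pools. For every gene the 3 E15 pools lie above the 3 adult pools, most widely for *Cdh5* (1863 to 2717 against 48.1 to 114) and least for *Emcn* and *Pecam1*.

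In order of log2 fold change the genes were *Cdh5*, *Tie1*, *Esam*, *Plvap*, *Flt1*, *Tek*, *Pecam1* and *Emcn*. Intervals of 1 standard error overlapped between the neighbours *Esam* and *Plvap*, *Plvap* and *Flt1*, *Flt1* and *Tek*, and *Pecam1* and *Emcn*. They did not overlap between *Cdh5* and *Tie1*, *Tie1* and *Esam*, or *Tek* and *Pecam1*. Scaling by total counts only, without TMM factors, raised each difference and kept the direction, with log2 fold changes from 2.58 for *Emcn* and *Pecam1* to 5.68 for *Cdh5*. This scaling also moved the median of all genes tested from 0.14 to 0.95.

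**Figure D2:**
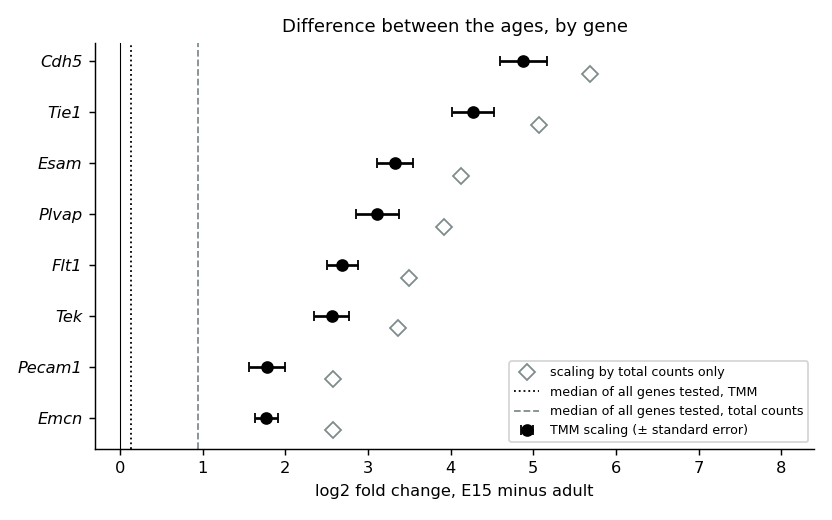
Log2 fold change (E15 minus adult) of each gene, as filled circles with bars of 1 standard error for TMM scaling and as open diamonds for scaling by total counts only, with vertical lines at the median of all genes tested under each scaling (0.14 and 0.95). All 8 genes lie to the right of the median under either scaling, from 1.77 for *Emcn* to 4.88 for *Cdh5* with TMM.

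To compare the genes with each other on a scale where library factors cancel apart from the pseudocount of 0.5, the log2 level of each gene was taken relative to the mean of the other 7 in the same pool. By this measure *Cdh5* was higher at E15, at 1.02, 1.18 and 1.17 in the embryonic pools against -1.38, -0.64 and -1.11 in the adult ones, a difference of 2.17. *Tie1* likewise stood at 0.83, 1.25 and 1.06 in embryonic pools against -0.40, -0.27 and -0.32 in adult ones, a difference of 1.38. Both thus made up more of the endothelial signal at E15 than in the adult.

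*Pecam1* and *Emcn* went the other way. *Pecam1* had relative levels of -1.17, -1.89 and -1.98 in embryonic pools against -0.25, -0.23 and -0.19 in adult ones, a difference of -1.46, and *Emcn* had a difference of -1.47. *Flt1* and *Tek* had smaller differences of -0.42 and -0.52 in the same direction. In these 6 genes the ages did not overlap, though those of *Tek* did when set against the median of the other genes instead of the mean (-0.35, exact permutation p = 0.20). With the mean each gave an exact permutation p of 0.10, two-sided, which is the smallest that 3 pools against 3 allow (0.133 after Benjamini-Hochberg adjustment over the 8 genes). Because each gene is set against the others of its pool, genes that stand higher push the rest lower by construction. The 8 differences and their p-values are therefore not separate results. *Esam* and *Plvap* overlapped between the ages, with differences of 0.34 and -0.02 and exact permutation p-values of 0.30 and 1.0. As a share of the summed normalized counts of the 8 genes, *Cdh5* made up 20.7% in each E15 pool and 4.66% to 7.86% in the adult pools, while *Emcn* made up 4.26% to 5.99% and 11.8% to 14.0%.

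**Figure D3:**
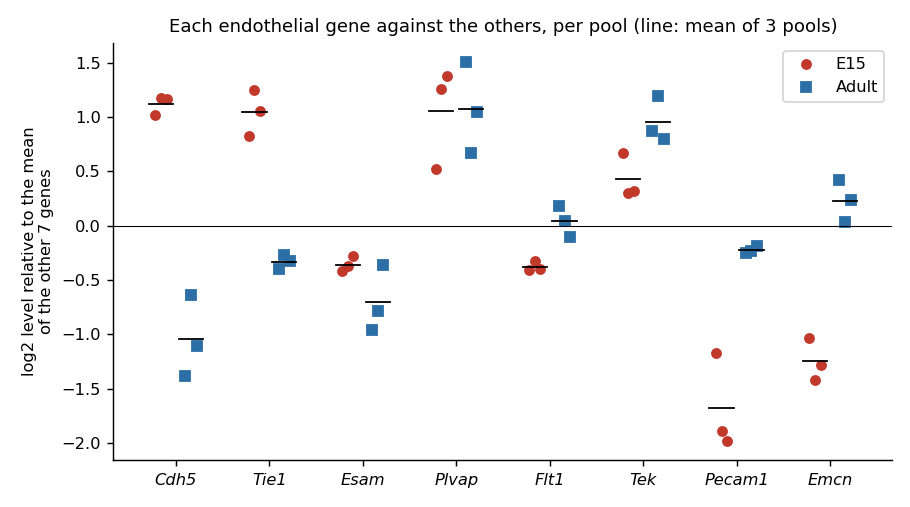
Log2 level of each endothelial gene relative to the mean of the other 7 genes in the same pool, E15 as circles and adult as squares, with lines at the means of 3 pools. *Cdh5* and *Tie1* lie higher at E15 (differences of 2.17 and 1.38), *Pecam1* and *Emcn* lie higher in the adult (-1.46 and -1.47), and *Esam* and *Plvap* overlap between the ages.

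The pools of an age also differed from each other in these genes. Set against the mean of the other 2 pools of its age, E15 replicate 2 was highest and E15 replicate 1 lowest, with a median log2 deviation over the 8 genes of 0.34 and -0.35. In the adult, replicate 2 was highest (0.44) and replicate 1 lowest (-0.50). Single genes departed from this order, with *Plvap* at 0.14 in adult replicate 1 and *Pecam1* at 0.38 in E15 replicate 1. The pericyte and smooth muscle list followed the same order in both ages, with deviations of -0.48, 0.32 and 0.01 in E15 replicates 1, 2 and 3 and -0.40, 0.40 and -0.11 in the adult replicates. The stromal fibroblast list stood at -0.39, 0.65 and -0.27 in the adult pools and the erythroid list at -0.65, 0.60 and -0.20. The choroid plexus epithelium list stood at -0.30, 0.10 and 0.15 in the E15 replicates and stayed between -0.03 and 0.07 in the adult ones. Genes of developing neurons varied most, from -1.80 in E15 replicate 2 to 1.98 in adult replicate 2. The part of other cell types in the differences between pools was not tested.

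**Figure D4:**
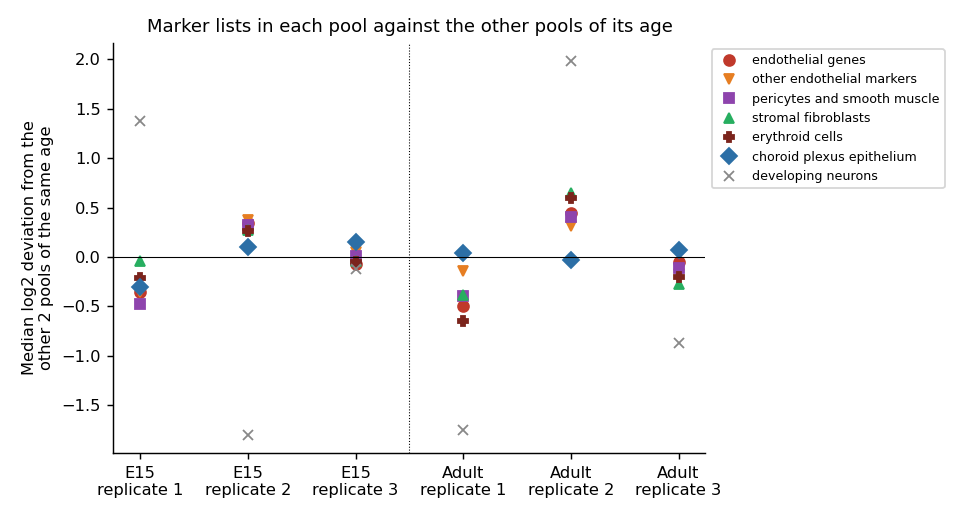
Median log2 deviation of 7 marker lists in each pool from the other 2 pools of the same age, with a dotted line between the ages. The endothelial genes (red circles) are low in replicate 1 and high in replicate 2 at both ages (-0.35 and 0.34 at E15, -0.50 and 0.44 in the adult). So are the pericyte and smooth muscle list and the erythroid list. The epithelium list, low in E15 replicate 1 (-0.30), stays between -0.03 and 0.07 in the adult pools.

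Promoter sequences of 4 of the 8 genes, *Flt1*, *Tie1*, *Plvap* and *Emcn*, were read from a table of RefSeq promoters (build GRCr8), and those of the other genes were not analysed here. They are shown because transcription factors of the ETS family, which bind around a GGAA core, are known to drive many endothelial genes, and because these genes were enriched at E15 together with several ETS genes given further on. The 250 bases before the annotated start of each gene are given 5′ to 3′ on the strand of the gene, with each GGAA, read on either strand, in capitals. The windows lie at chr12:12333180-12333429 (plus strand), chr5:137304982-137305231 (minus strand), chr16:18231280-18231529 (minus strand) and chr2:228564289-228564538 (plus strand).
Flt1: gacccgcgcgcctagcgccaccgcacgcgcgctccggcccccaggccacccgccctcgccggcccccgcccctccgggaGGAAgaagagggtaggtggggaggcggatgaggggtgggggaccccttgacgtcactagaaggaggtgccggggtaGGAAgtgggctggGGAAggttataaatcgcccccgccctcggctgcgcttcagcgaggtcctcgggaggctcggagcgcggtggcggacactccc
Tie1: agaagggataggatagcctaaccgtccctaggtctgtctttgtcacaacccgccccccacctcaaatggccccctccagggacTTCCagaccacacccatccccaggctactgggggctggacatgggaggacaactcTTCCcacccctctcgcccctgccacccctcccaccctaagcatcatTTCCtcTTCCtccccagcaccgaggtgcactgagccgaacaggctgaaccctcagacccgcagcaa
Plvap: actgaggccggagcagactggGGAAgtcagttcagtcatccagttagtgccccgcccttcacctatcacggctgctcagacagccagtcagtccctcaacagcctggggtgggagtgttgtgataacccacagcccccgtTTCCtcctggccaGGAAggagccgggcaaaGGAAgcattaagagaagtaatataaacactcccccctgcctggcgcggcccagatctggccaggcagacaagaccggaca
Emcn: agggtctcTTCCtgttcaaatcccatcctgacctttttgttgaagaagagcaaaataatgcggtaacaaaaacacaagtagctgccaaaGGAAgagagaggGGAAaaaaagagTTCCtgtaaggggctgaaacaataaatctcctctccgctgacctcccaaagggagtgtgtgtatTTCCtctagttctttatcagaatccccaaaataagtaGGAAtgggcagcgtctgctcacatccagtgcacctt
The *Flt1* window held 3 GGAA cores, those of *Tie1* and *Plvap* 4 each and that of *Emcn* 6. A GGAA core is short, and 93.2% of the 33469 promoter windows of the same length held at least 1, with a median of 3. The longer form AGGAAG, which contains the core and was also read on both strands, was present in each of these 4 windows and in 29.5% of all windows. The sequence AGATAA, which is not the only form of the GATA motif, was present in none of the 4 and in 10.3% of all. Other forms were not counted, and TGATAA, read on either strand, can be seen in the *Plvap* and *Emcn* windows. A match of letters is a description of the window and does not show that a factor binds there. Any link between the ETS genes and the levels of these genes was not tested.

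Of the VEGF ligands and co-receptors, 7 of 8 could be named, with 4 enriched at E15 and 3 enriched in the adult and a median log2 fold change of 1.14. All named genes tested were enriched at E15 for 50.6% and in the adult for 42.2%. *Flt4*, the VEGF receptor of lymphatic and sprouting endothelium, had 360.1, 591 and 491 normalized counts in embryonic pools against 18.4, 2.60 and 16.5 in adult ones (5.27 ± 0.43 on the log2 scale, SE). Its ligands *Vegfc* and *Figf* (VEGF-D) were enriched at E15 2.21- and 16.4-fold, and the co-receptor *Nrp2* 2.97-fold. Adult replicate 2 held most adult counts of *Figf*. The log2 fold change of 4.03 became 5.11 without this pool and 3.63 without adult replicate 1.

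The ligands that bind VEGF receptor 1 were not enriched at E15. *Vegfa* had 2278, 2615 and 2277 normalized counts in embryonic pools against 4694, 4164 and 4057 in adult ones, 1.80-fold higher in the adult with TMM scaling (log2 fold change -0.85, edgeR adjusted p = 9.78e-05). *Vegfb* and *Pgf* (placental growth factor) were 1.76- and 1.85-fold higher in the adult. None of these 3 was called with scaling by total counts only, where the log2 fold change of *Vegfa* was -0.04 and that of *Pgf* -0.08. *Vegfb* also lost its call with upper quartile factors and without any 1 of the adult pools (adjusted p from 0.0516 to 0.0672 in the edgeR test), and *Pgf* without E15 replicate 3 (0.0599).

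The angiopoietins are the ligands of the receptor encoded by *Tek*. *Angpt2*, made by endothelial cells of remodelling vessels, had 123, 132 and 128 normalized counts in embryonic pools against 25.5, 26.0 and 19.2 in adult ones, an enrichment of 5.38-fold. *Angpt1*, the activating ligand made mostly by cells around the vessel, had 214, 160.2 and 126 in embryonic pools against 115, 112 and 86.5 in adult ones, an enrichment of 0.68 ± 0.26 on the log2 scale (SE, edgeR adjusted p = 0.0422) that was no longer called without any 1 of 5 pools, all but E15 replicate 3, with an adjusted p from 0.0754 to 0.147, nor in limma-voom (0.0615). *Angpt4* stayed under 25 raw counts in every pool and was called at 5.37-fold, but not without any 1 of E15 replicates 2 and 3 and adult replicates 2 and 3 (0.0752 to 0.12).

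Endoglin, encoded by *Eng*, is a co-receptor for ligands of the TGF-beta family, and 9 of 13 further genes of its pathway could be named. Of these 8 were enriched at E15, with *Tgfbr2* the exception, and the median log2 fold change was 2.07. The share enriched at E15 among all named genes tested was 50.6%, and their median was 0.73. *Acvrl1*, the endothelial type I receptor ALK1, had 609.8, 953 and 762 normalized counts in embryonic pools against 118, 121 and 155 in adult ones, a 5.91-fold enrichment. *Tgfb1*, *Id1* and *Id3* were enriched 4.92-, 2.77- and 5.17-fold, and *Smad1*, *Smad5* and the inhibitor *Smad6* 2.32-, 2.13- and 4.21-fold. *Smad9* was enriched on few counts, with 16, 72 and 65 raw counts in embryonic pools against 9, 2 and 2 in adult ones. *Tgfbr2* was 2.57-fold higher in the adult. Which cells of the whole plexus expressed these pathway genes cannot be told from the counts.

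Of 12 other genes of cell junctions, 8 could be named, with 6 enriched at E15, 2 in the adult and a median log2 fold change of 1.44. Named genes tested were enriched at E15 for 50.6% and in the adult for 42.2%. *Pcdh12* (VE-cadherin-2) and the connexin genes *Gja4* and *Gja5* were enriched at E15 34.3-, 15.3- and 7.23-fold. *Ctnnb1*, *Jup* and *Jam2*, which epithelial cells or stroma also express, were enriched 2.57-, 2.73- and 2.68-fold. *Jam3* and *F11r*, which are also junction genes of the epithelium, were 4.66- and 5.34-fold higher in the adult. Of the genes of caveolae, the membrane pits that carry *Plvap* diaphragms, 5 of 6 could be named, with 4 enriched at E15, 1 in the adult and a median of 0.95. *Cav1* was enriched at E15 3.48-fold, *Ehd2* 3.09-fold and *Prkcdbp* 1.94-fold, while *Sdpr* was 2.48-fold higher in the adult. *Ptrf* was called at 1.87-fold with overlap between the ages and lost its call in limma-voom and without any 1 of 5 pools, all but E15 replicate 1 (0.0833 to 0.132 in the edgeR test).

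All 12 endothelial transcription factor genes that could be named, of 15, were enriched at E15, with a median log2 fold change of 3.20. Of all named genes tested 50.6% were enriched at E15, and their median was 0.73. The ETS genes *Ets1*, *Fli1* and *Erg* were enriched 15.9-, 18.2- and 13.4-fold, and *Elk3* 1.85-fold. *Ets1* had 3954, 3654 and 2973 normalized counts in embryonic pools against 201, 245 and 218 in adult ones. *Tal1*, which acts in blood and endothelial precursors, was enriched 23.7-fold, and *Sox17* and *Sox18* 4.49- and 17.1-fold. *Klf2*, a gene induced by blood flow, was enriched 14.9-fold and had a log2 fold change of 4.52 without adult replicate 2. *Hhex*, *Gata2* and *Klf4* were enriched 6.29-, 3.79- and 3.74-fold. *Lmo2*, a partner of *Tal1*, was enriched 2.04-fold. Several of these genes are also expressed outside endothelium, *Ets1* in stroma and *Tal1* and *Lmo2* in erythroid cells.

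Notch and ephrin genes that pattern arteries and veins were likewise higher at E15, with all 8 that could be named, of 10, enriched and a median log2 fold change of 2.57. Among all named genes tested, 50.6% were enriched at E15, with a median of 0.73. *Efnb2*, which marks arteries, had 597, 527 and 529 normalized counts in embryonic pools against 11.3, 14.3 and 1.37 in adult ones, an enrichment of 5.91 ± 0.38 on the log2 scale (SE). *Dll4* and *Notch4*, the ligand and receptor of arterial and sprouting endothelium, were enriched 6.69- and 5.27-fold. *Notch1*, the Notch target *Heyl* and the ligand *Jag1* were enriched 12.9-, 6.88- and 1.95-fold. *Hey1*, another target, was enriched 3.16-fold. Its log2 fold change of 1.66 was 2.35 without adult replicate 2 and 1.29 without adult replicate 3. *Nr2f2*, which specifies veins and is also found in stroma, was enriched 2.51-fold. The authors list *Notch1* among genes of plexus differentiation and development. In pools of whole plexus, the cells that expressed the genes of this list cannot be told from the counts.

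Among 26 other markers of endothelium, 21 could be named, and 19 of them were enriched at E15, with 1 in the adult and 1 not called. The median log2 fold change was 3.19, against 0.73 for all named genes tested, of which 50.6% were enriched at E15. The markers with the most counts were *Aplnr*, *Gpr116* and *Vwf*, enriched 25.1-, 7.95- and 3.91-fold. *Apln*, the ligand of *Aplnr* and a gene of sprouting tips, had 177, 353 and 336 raw counts in embryonic pools against 0, 2 and 2 in adult ones. *Tm4sf1* went against the list, with 17, 24 and 22 raw counts in embryonic pools against 330, 353 and 218 in adult ones, 24.5-fold higher in the adult. *Thbd*, the gene of thrombomodulin, had 90.9, 124 and 133 normalized counts in embryonic pools against 63.7, 101 and 50.8 in adult ones and was not called (edgeR adjusted p = 0.0790), though it was called at E15 without E15 replicate 1 (0.0306) and without adult replicate 2 (0.0200), with upper quartile factors (0.0439), with total counts only (0.00215) and in the exact test with a common dispersion (0.0126). Of 7 genes of brain barrier endothelium 4 could be named, and these do not mark endothelium alone in the plexus. *Slc38a5*, *Abcg2* and *Slc2a1* were enriched at E15 97.2-, 11.6- and 1.73-fold, and *Slco1c1* was 18.3-fold higher in the adult. The fold of *Slc38a5* rested on 4, 12 and 2 adult counts. Its log2 value of 6.60 was 7.51 without adult replicate 2 and 6.17 without adult replicate 3.

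**Figure D5:**
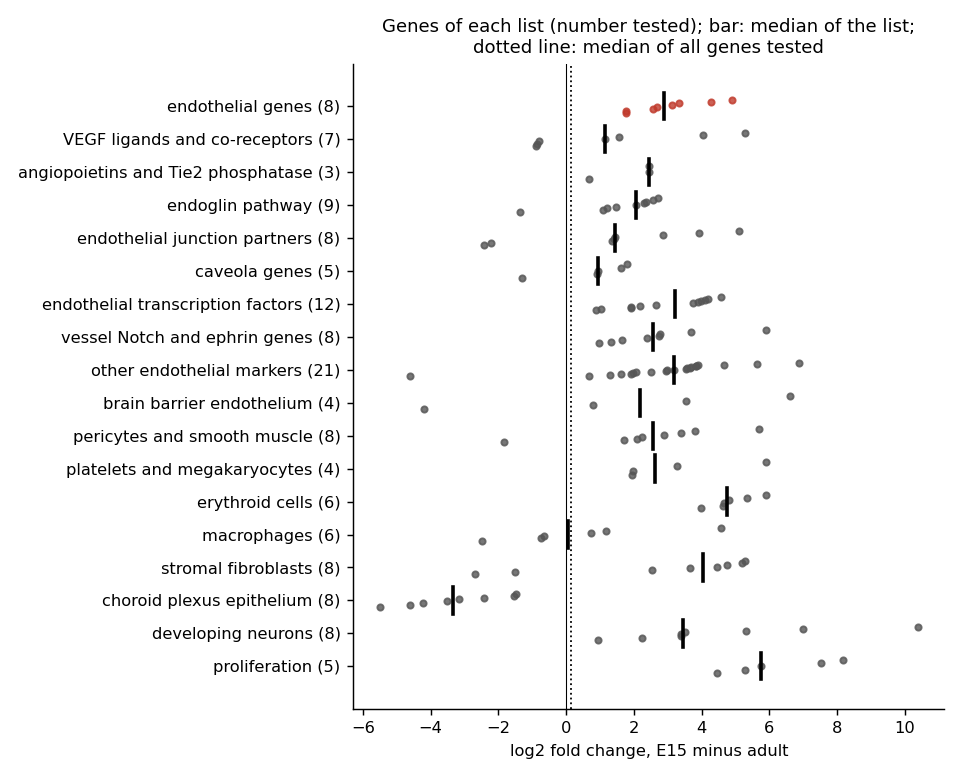
Log2 fold change (E15 minus adult) of each gene tested, as a point, in the endothelial genes (red) and 17 other lists, with a bar at the median of each list and a dotted line at the median of all genes tested (0.14). The 8 endothelial genes lie between 1.77 and 4.88 and their median is 2.90, while all 8 epithelium genes lie below 0. Fitted values of genes with 0 adult counts, *Neurod6* and *Ppbp*, are no measure of size.

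Markers of other cells in the pools moved with age as well, as did 92.8% of all named genes tested, 50.6% at E15 and 42.2% in the adult. Of 13 pericyte and smooth muscle genes 8 could be named, of which 7 were enriched at E15, with a median log2 fold change of 2.57. Their summed normalized counts were 6892 to 9318 at E15 and 1022 to 1426 in the adult. *Pdgfrb*, *Rgs5* and *Notch3* were enriched 4.68-, 7.49- and 51.6-fold. *Higd1b* was the exception, with 7, 17 and 4 raw counts in embryonic pools against 20, 27 and 12 in adult ones, and its call at -1.84 on the log2 scale was lost without any 1 of E15 replicate 3, adult replicate 1 and adult replicate 2 (0.0509 to 0.0866) and with scaling by total counts only, where it was -1.05 (0.147).

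Platelets carry *Pecam1* and *Esam* and developing blood cells *Tek* and *Tie1*. All 4 platelet and megakaryocyte genes that could be named, of 9, were enriched at E15, but at low levels, with summed normalized counts of 201 to 329 at E15 and 50 to 84 in the adult. For this list and those below, the shares among all named genes tested were 50.6% at E15 and 42.2% in the adult. *Gp1ba*, a subunit of the platelet receptor for von Willebrand factor, overlapped between the ages and lost its call in limma-voom (adjusted p = 0.121) and without any 1 of 5 pools, all but E15 replicate 1 (edgeR adjusted p from 0.0507 to 0.177). *Pf4* (platelet factor 4) and *Gp5* were enriched 3.95- and 9.75-fold. The log2 fold change of *Gp5*, 3.28, was 4.17 without adult replicate 2 and 2.88 without adult replicate 1. *Ppbp* had 0 counts in each adult pool and 13, 9 and 6 at E15. The 6 erythroid genes that could be named, of 10, were all enriched at E15, with a median log2 fold change of 4.74 and summed normalized counts of 7654 to 9634 at E15 and 153 to 303 in the adult. *Slc4a1*, the anion exchanger of red cells, was enriched 59.4-fold, *Alas2*, an enzyme of heme synthesis, 15.9-fold and *Ahsp*, a chaperone of alpha globin, 28.2-fold. Proliferation genes were named for 5 of 8 and all were enriched at E15, with a median of 5.76 and sums of 8106 to 9653 at E15 and 133 to 173 in the adult. The cell cycle genes *Ccnb1* and *Bub1* were enriched 54.3- and 21.6-fold, and *Cdk1* had 3773, 3371 and 3509 raw counts in embryonic pools against 9, 4 and 8 in adult ones. All 8 epithelium genes that could be named, of 10, were enriched in the adult, from 2.76-fold for *Aqp1* to 45.1-fold for *Kl*, with a median log2 fold change of -3.34. *Ttr*, the gene of transthyretin, was 8.96-fold and *Clic6* 2.88-fold higher in the adult. The part of these cells in the difference of the endothelial genes between the ages was not tested.

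Of 7372 named genes outside the lists, with a mean above 100 normalized counts at the higher age, the genes whose log2 levels over the 6 pools were most like the mean of the 8 endothelial genes were *Maml1*, *Gli1*, *Dchs1*, *Nid1* and *Card10*. Pearson's r was between 0.99927 and 0.99979 over 6 pools, given as a description, since the ages lie far apart and 493 of these genes had an r of at least 0.99. The 8 genes themselves had an r between 0.975 and 0.999 with their own mean. *Nid1*, the gene of the basement membrane protein nidogen-1, had 5295, 7954 and 6611 raw counts in embryonic pools against 50, 114 and 62 in adult ones.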

How the data were processed

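Libraries were made from total RNA of 6 pools with an mRNA-Seq preparation kit, 1 library per pool, and sequenced as single reads of 100 bp. The deposited values are raw counts per Ensembl gene, without normalization. To make them the authors trimmed the reads, aligned them to the rat genome of Ensembl release 61 (Bowtie 0.12.7), kept uniquely placed reads and summed these over nuclear genes in the union mode of HTSeq 0.4.7p4; whether strand was used is not given in the sources used here. A second deposited table holds, for the genes the authors called, a log2 average abundance, a log2 fold change and p-values from edgeR 2.4.0. Only its gene identifiers and names were used.

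Counts were tested with edgeR 4.0.16 in R 4.3.3 (TMM factors, estimateDisp, glmQLFit, glmQLFTest, age as the only term) for genes with a sum above 10 counts. The standard error is the absolute log2 fold change divided by the square root of F. The biological coefficient of variation came to 18.2% (common dispersion 0.0332). Relative levels used log2 of normalized counts plus 0.5 and an exact permutation test. Transcript lengths were not used here, so counts do not rank the genes by transcript number. Relative levels and shares of counts depend on length and were read only between the ages. No 2 pools of the same age matched within sampling noise, with a chi-square between 5.40 and 56.4 for each degree of freedom, so each counted as 1 replicate.

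Alternatives were the size factors and the Wald test of DESeq2 1.42.0, upper quartile factors, total counts only, no filter, filterByExpr, limma-voom (limma 3.58.1), an exact test with a common dispersion, the replicate number as a block, and each library left out in turn. The test was tried on simulated counts with 200 changed genes. Lists were matched by the authors' gene name or the RefSeq symbol of the protein accession they print. Named genes were the 8 endothelial genes, the genes of the pathway lists, from each marker list the 3 with the most counts and those against its direction, and the 5 most like the endothelial mean; others (*Apln*, *Thbd*, *Abcg2*, *Ppbp*, *Aqp1*, *Col1a1*, *Ptprc*, *C1qb*, *Neurod6* and *Gap43*) were chosen after their values were seen. The genes and lists were chosen with earlier results of these data known. Python 3.11.15 was used for lists and figures, with pandas 2.3.3, scipy 1.17.1 and matplotlib 3.10.9.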

Additional observations from a re-analysis of the deposited data

How the results depend on the processing

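All 8 endothelial genes kept their direction and their call under each of the 15 alternatives, leaving out each pool included. The setting that moved the counts over all genes by more than 1.5 times was scaling by total counts only, with 9799 genes called at E15 and 2292 in the adult against 5773 and 4879. With this scaling *C1qa*, a macrophage gene called in the adult, changed sign to 0.06 on the log2 scale. Relative to the other endothelial genes, the difference of *Plvap* was close to 0 and changed sign to 0.0035 with a pseudocount of 5 and to 0.0807 against the median of the others, and ranged from -0.23 to 0.25 with single pools left out. The difference of *Esam* was -0.0008 against the median and 0.21 to 0.51 with single pools left out. Against the median of the others *Tek* had a difference of -0.35 with an exact permutation p of 0.20, where the ages overlapped. The labels do not say whether the replicate numbers pair the pools. Deviations of pools with the same number had correlations of -0.007, -0.011 and -0.038 over 16643 genes, which cannot exclude a pairing that touches only some genes. With the replicate number as a block, 5320 genes were called at E15 and 4608 in the adult, and the log2 fold changes of the 8 genes lay between 1.78 and 4.93, with all 8 called. *Angpt4* (edgeR adjusted p = 0.0911) and *Gp1ba* (0.0934) were not called with the block. Of the other list genes, 44 values under the alternatives lost a call, 9 gained one, 1 changed sign and 1892 stayed on the same side of the threshold, called or not. Depth limits genes with few adult counts, such as *Apln* and *Angpt4*.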

Other observations

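Within the stromal fibroblast and macrophage lists the genes did not move as groups. Of the 8 fibroblast genes, enrichment was at E15 for 6 and in the adult for 2. *Col1a1* and *Col3a1*, the main fibrillar collagens of young connective tissue, were enriched at E15 36.7- and 21.7-fold and *Col1a2* 5.78-fold, while *Dcn* (decorin) and the fibroblast receptor *Pdgfra* were 6.52- and 2.84-fold higher in the adult. Among 6 macrophage genes that could be named, of 10, enrichment was at E15 for 3 and in the adult for 2, and *Ptprc* was not called, with raw counts of 116, 81 and 63 in embryonic pools against 67, 86 and 88 in adult ones. *Mrc1*, a mannose receptor of resident macrophages that some vascular cells also express, had 927, 985 and 822 raw counts in embryonic pools against 14, 20 and 33 in adult ones, an enrichment of 23.6-fold. *Csf1r*, the receptor that macrophages need to survive, was enriched 2.27-fold. *Cd14*, a co-receptor for bacterial lipopolysaccharide, was 5.55-fold higher in the adult, and *C1qa* 1.67-fold, though *C1qa* changed sign with scaling by total counts only. *Ptprc* was called in the adult without E15 replicate 1 (edgeR adjusted p = 0.00883) and in an exact test that used one common dispersion (0.0147), and *C1qb* lost its call at E15 without any 1 of E15 replicates 2 and 3 and adult replicates 1 and 2 (0.0603 to 0.129) and in limma-voom (0.0514).

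Of 8 genes of developing neurons, 7 were enriched at E15, against 50.6% of all named genes tested. *Tubb3*, a neuronal tubulin, was enriched 10.4-fold. Its log2 fold change of 3.38 was 3.97 without adult replicate 2 and 3.11 without adult replicate 3. *Dcx*, a microtubule protein of migrating neurons, had 1275, 363 and 589 raw counts in embryonic pools against 0, 8 and 2 in adult ones, and *Gap43*, which was not called, had 323, 113 and 299 in embryonic pools against 3, 191 and 39 in adult ones. *Gap43* was called at E15 without adult replicate 2 (edgeR adjusted p = 0.0192) and in that exact test (0.000244), and *Stmn2* lost its call without adult replicate 1 (0.0900) or adult replicate 3 (0.0937). The pools highest in the endothelial genes, replicate 2 at each age, were the lowest E15 pool and the highest adult pool for the neuronal list. This was noticed after the values were seen, and its cause was not tested.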
